A study of Mus musculus with 2 samples.

Results

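Microfold-like cells of the mouse thymic medulla are described here in single-cell transcriptomes of sorted EPCAM+ thymic cells. A cell was counted as a member when it held at least 1 UMI (a molecule counted once) of at least 3 of 6 marker genes, Gp2, Ccl20, Ccl9, Tnfaip2, Spib and Sox8, and fewer than 3 UMIs of Aire. Cells entered with 500 or more genes, 1000 or more UMIs and no more than 10% of UMIs from mitochondrial genes. It found 358 of 7621 cells. Of these, 139 of 3584 came from the library labelled Foxp1 KO and 219 of 4037 from the library labelled Foxp1 WT. Members were thus chosen by measured values of the 6 genes and of Aire, which are given as a description.

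The series compared mice with and without Cre in a Foxp1 model, with 1 library of each: the library labelled KO is named Cre+ and the library labelled WT is named Cre-. Both came from thymi dissociated with liberase and DNase, with epithelial cells enriched on Percoll and live EPCAM+ cells sorted. Both samples carry KO as their genotype entry, and the groups are told apart by titles and library names. Not given in the sources used here are the Cre driver, the deleted part of Foxp1, and the number, age and strain of the animals. With 1 library per group no test was possible. Each 95% interval below covers counting error only; it leaves out the spread between animals and the fact that few cells may hold most UMIs of a gene.

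Microfold cells lie in the epithelium over the lymphoid tissue of gut and airway, where they take up particles and microbes and hand them to the immune cells beneath. Their differentiation depends on the cytokine RANKL acting on its receptor RANK (Tnfrsf11a), on NF-kB signalling and on the transcription factors Spib and Sox8. Gp2 is their receptor for piliated bacteria, Ccl20 and Ccl9 are chemokines of the epithelium over lymphoid follicles, and Tnfaip2 is a cytoplasmic protein found in microfold cells of gut and nose. In the thymic medulla, mimetic epithelial cells carry the programmes of such peripheral cell types and so display their proteins to developing T cells.

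Foxp1, the targeted gene, was higher in the library labelled KO. In members it stood at 298 CPM (a gene's UMIs scaled to the summed UMIs of the group) against 246 CPM in the library labelled WT; the log2 ratio was 0.28 [0.07, 0.48]. In all other cells it stood at 402 against 255 CPM. The matrices count whole genes, so these values do not show whether a deleted part of Foxp1 was read, and 4 other annotated genes overlap it on the same strand. The direction goes against the label, and the libraries are therefore called by their labels throughout. Members had a median of 6957 UMIs in the library labelled KO and 7882 in the library labelled WT, against 5009 and 6163 in other cells. The libraries shared 5 cell barcodes.

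The label was checked first against epithelial identity. At least 3 of 6 epithelial markers were found in 127 of 139 members of the library labelled KO (91.4%) and in 201 of 219 of the library labelled WT (91.8%), against 77.0% and 82.8% of other cells. Epcam itself had a UMI in 121 and 205 members. All 6 rule genes marked the members, but not evenly. Members with 3, 4, 5 and 6 of the markers numbered 59, 30, 30 and 20 in the library labelled KO and 103, 47, 42 and 27 in the library labelled WT. Members with 3 markers were the deepest, with medians of 9058 and 9205 UMIs, and those with 4 markers had medians of 4819.5 and 4673. Just outside the marker threshold, 234 and 337 cells held 2 markers with fewer than 3 Aire UMIs. The Aire limit left out 107 of 246 cells with at least 3 markers in the library labelled KO (43.5%) and 168 of 387 in the library labelled WT (43.4%). Cells just inside that limit, with 2 Aire UMIs, numbered 8 and 25, and cells just outside it, with exactly 3, numbered 8 and 11.

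The transcription factor Spib had a UMI in 122 of 139 members of the library labelled KO and in 189 of 219 of the library labelled WT, and its level was 457 and 477 CPM. The effector genes were spread less evenly. Ccl20 was found in 115 and 150 members and Ccl9 in 102 and 151. Gp2 was found in 50 and 112, and Sox8 in 61 and 104. The 10 members with the most Gp2 held 66.9% of all its UMIs in the library labelled KO and 48.9% in the library labelled WT, so its summed level of 686 and 633 CPM describes few cells. For Ccl20 that share was 49.9% and 32.0%. Tnfaip2 was found in 117 and 163 members, at 577 and 556 CPM.

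Levels of the rule genes by number of markers are a description, since grouping cells by these genes makes each of them higher where more are present. Ccl20 stood at 893, 2524 and 7739 CPM in members with 3, 4 and 5 or 6 markers of the library labelled KO, and at 602, 2798 and 8445 CPM in the library labelled WT. Gp2 stood at 45.6, 178 and 1939 CPM and at 223, 410 and 1665 CPM. Ccl9 stood at 92.9, 357 and 1354 CPM and at 96.0, 532 and 1589 CPM. Members with 3 markers lay close to the cells with 2 markers for Ccl9 and Tnfaip2 in both libraries. Tuft-like cells, a chemosensory mimetic type, also held Spib, at 223 and 271 CPM, and Gp2, at 20.4 and 104 CPM, with Ccl9 at 0.50 and 4.9 CPM.

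**Figure D1:**
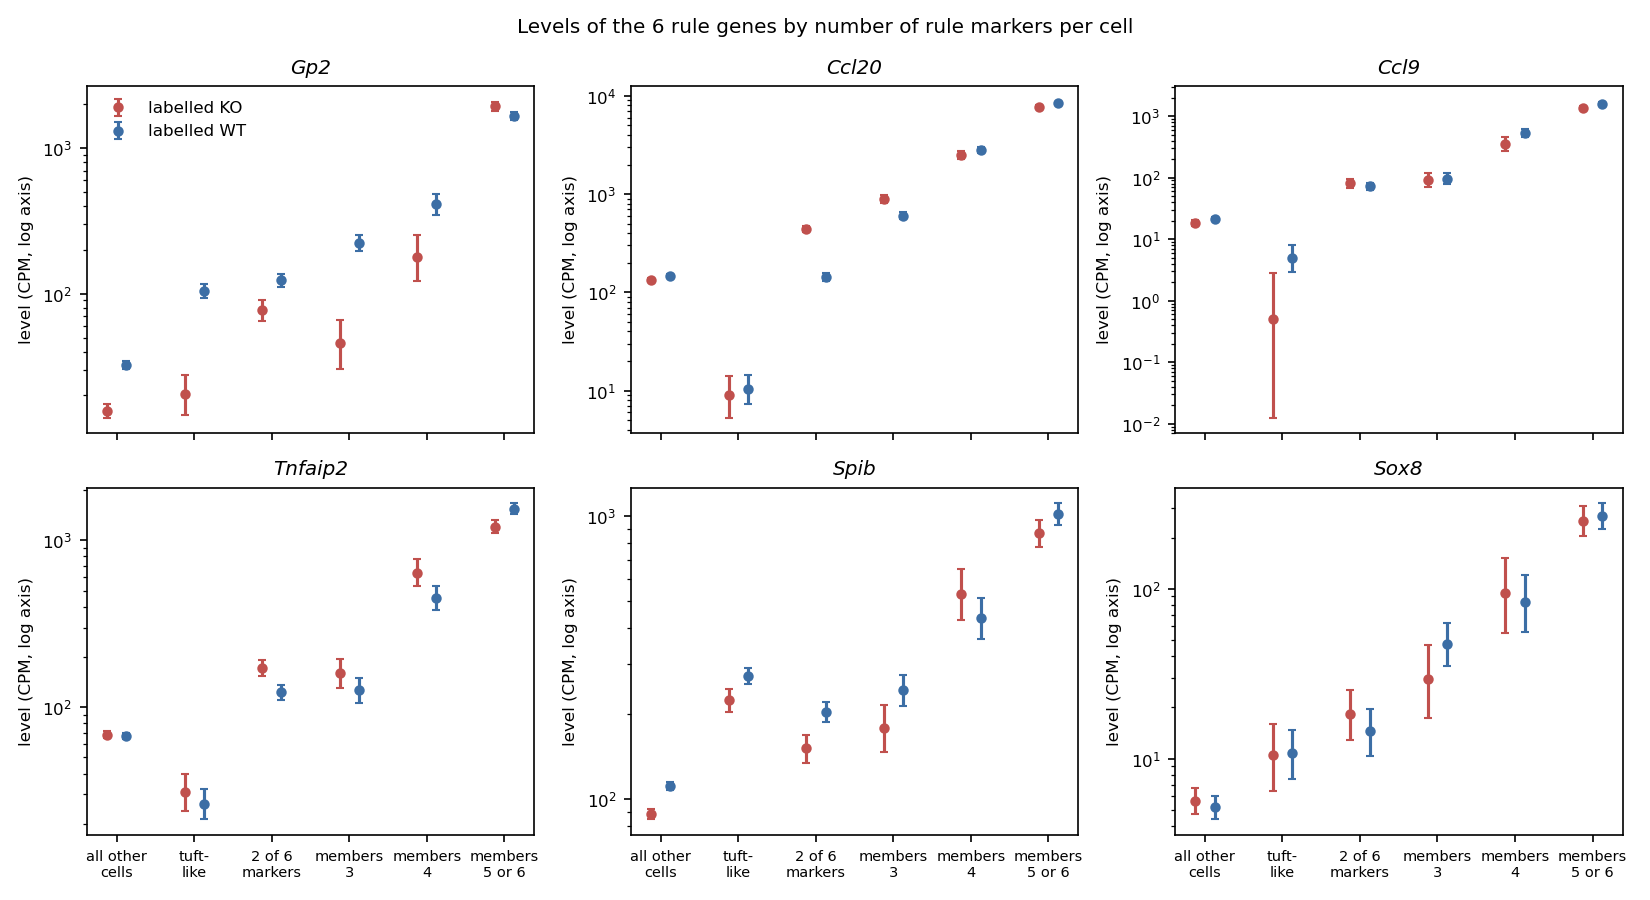
Summed level of each rule gene (CPM, log axis, with 95% counting intervals) in all other cells, tuft-like cells, cells with 2 of the 6 markers, and members with 3, 4 and 5 or 6 markers, for the libraries labelled KO (red) and WT (blue). Every rule gene is highest in members with 5 or 6 markers, as grouping by these genes sets; tuft-like cells hold Spib at 223 and 271 CPM with little Ccl9.

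A depth of 2000 UMIs per cell, which left out 10 and 25 members as shallower, gave shares that can be set beside background. Gp2 then had a UMI in 31.0% of 129 members of the library labelled KO and 32.0% of 194 of the library labelled WT. Among other cells Gp2 had a UMI in 1.27% and 2.53%. In endothelial cells without Epcam, which should lack Gp2, it had none in 94 and 40 cells. Ccl20 had a UMI in 67.4% and 51.0% of members, in 5.51% and 5.41% of other cells, and in 3 of 94 and 0 of 40 of those endothelial cells. Gp2, Ccl20 and the other rule genes were thus above the share seen in cells of another lineage, as the rule sets for the members. At full depth those endothelial cells had medians of 2539 and 3291 UMIs.

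The rule genes lie on 5 chromosomes of mm10: Gp2 on chromosome 7 at 119442537 to 119459285 (minus strand), Spib on chromosome 7 at 44525993 to 44532071 (minus), Ccl20 on chromosome 1 at 83116766 to 83119167 (plus), Ccl9 on chromosome 11 at 83572919 to 83578636 (minus), Tnfaip2 on chromosome 12 at 111442469 to 111455018 (plus) and Sox8 on chromosome 17 at 25565892 to 25570686 (minus). Ccl6, the leading gene outside the rule, is the neighbour of Ccl9 on the same strand, at 83587882 to 83593087 on chromosome 11. Promoters (RefSeq, GRCm38.p6, 250 bases before the start) were searched on both strands for GAGGAA and for a kB-like motif. GAGGAA is the PU-box, bound by ETS factors of the Spib kind, and the shorter ETS core GGAA was not searched. The kB-like motif is GGGA and CC with any 4 bases between them. The search covered the 6 rule genes and 4 genes picked after their values were seen (Ccl6, Pglyrp1, Serpinb6a and Rnase1). Each motif was found in 2 of the 10 genes, Ccl20 and Pglyrp1. Of 32851 mouse promoters of the same length, 23.3% hold GAGGAA and 17.6% hold the kB-like motif, so these letters are common and their presence describes the windows only. The windows of the 2 genes with both motifs and of the neighbours Ccl6 and Ccl9, which hold neither, are shown 5′ to 3′ on the gene's strand, ending at the base before the start, with matches on either strand in capitals (on the opposite strand GAGGAA reads as its complement). They lie at chr1:83116516-83116765 (plus), chr7:18884440-18884689 (plus), chr11:83593088-83593337 (minus) and chr11:83578637-83578886 (minus).
Ccl20: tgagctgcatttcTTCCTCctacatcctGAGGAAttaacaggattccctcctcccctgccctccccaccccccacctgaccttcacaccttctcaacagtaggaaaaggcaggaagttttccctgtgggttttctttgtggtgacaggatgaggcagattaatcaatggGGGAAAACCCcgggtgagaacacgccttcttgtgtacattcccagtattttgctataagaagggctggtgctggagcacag
Pglyrp1: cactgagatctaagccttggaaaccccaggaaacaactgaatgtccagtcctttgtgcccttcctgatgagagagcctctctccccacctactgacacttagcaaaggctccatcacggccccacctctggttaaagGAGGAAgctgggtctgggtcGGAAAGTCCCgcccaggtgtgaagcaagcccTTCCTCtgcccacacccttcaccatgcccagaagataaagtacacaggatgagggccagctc
Ccl6: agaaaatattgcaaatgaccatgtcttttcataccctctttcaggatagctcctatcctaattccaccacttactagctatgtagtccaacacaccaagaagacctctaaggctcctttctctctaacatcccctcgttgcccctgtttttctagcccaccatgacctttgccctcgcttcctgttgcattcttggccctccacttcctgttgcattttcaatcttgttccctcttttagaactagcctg
Ccl9: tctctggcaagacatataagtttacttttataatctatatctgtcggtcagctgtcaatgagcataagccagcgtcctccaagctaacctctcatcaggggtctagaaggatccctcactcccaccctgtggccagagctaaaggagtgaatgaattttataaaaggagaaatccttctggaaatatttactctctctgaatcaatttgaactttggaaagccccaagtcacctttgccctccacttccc
In the Ccl20 window the GAGGAA matches begin 237 and 222 bases before the start and the kB-like match 81 bases before it. In the Pglyrp1 window they begin 113 and 62 bases before the start and the kB-like match 93 bases before it.

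To see whether members resembled each other in genes the rule did not use, a map of all cells was built from 3000 variable genes without the 6 rule genes, Aire and Foxp1. This map was made after the members were known. Among the 15 nearest neighbours of a member with 5 or 6 markers, 79.6% (library labelled KO) and 81.0% (library labelled WT) were members on average. With 4 markers the means were 45.6% and 54.3%, and with 3 markers 16.5% and 12.5%. For other cells the mean was 1.78% and 2.21%. Of the members with 3 markers, 18 of 59 and 41 of 103 had no member among their neighbours.

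**Figure D2:**
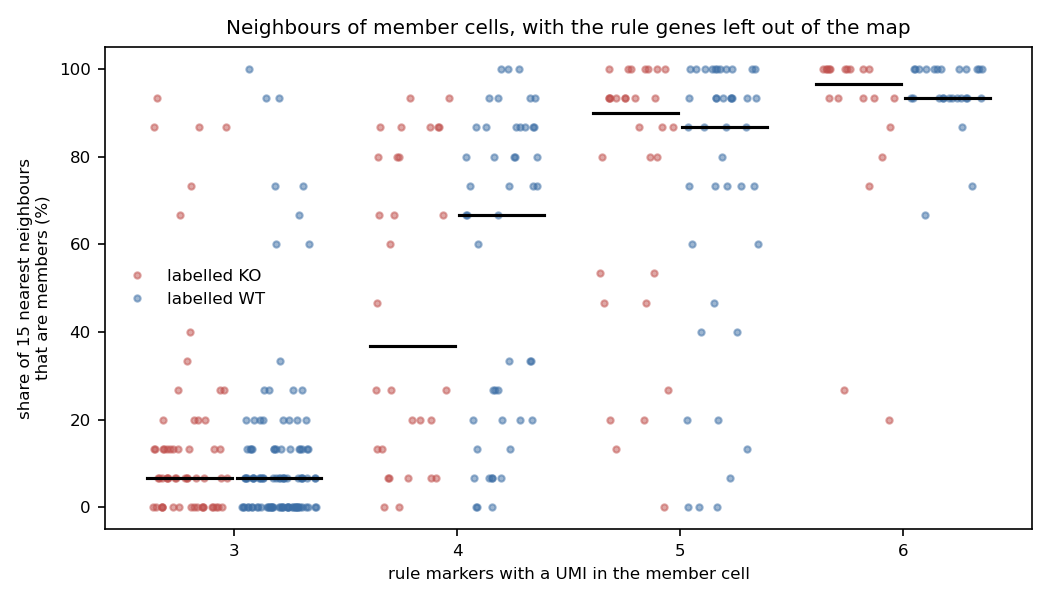
Share of the 15 nearest neighbours that are members (%, vertical axis) for each member, by number of rule markers with a UMI (horizontal axis), in the libraries labelled KO (red) and WT (blue), with black bars at the median. Members with 5 or 6 markers mostly neighbour each other (means 79.6% and 81.0%), while those with 3 markers mostly do not (16.5% and 12.5%).

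Clustering of the same map gave 21 clusters, and 1 of them, with 184 cells, held 159 members. It held 41 of 50 and 60 of 69 of the members with 5 or 6 markers, 14 of 30 and 28 of 47 of those with 4, and 7 of 59 and 9 of 103 of those with 3. Its leading genes included Gm37800, Ccl6, Gm50069, Cr2, Ccl9, Gp2, Ccl20, Serpinb6a and Abca13, where the rule genes are high because most of these cells were chosen by them. The remaining members were scattered. A cluster led by the keratinocyte genes Krt6a and Calm4 held 32, a cluster led by Nos2 and Fabp9 held 31, and a cluster led by tuft genes such as Sh2d6 held 27. All 27 members of that tuft cluster, 9 and 18, had exactly 3 markers. Another cluster with tuft genes, led by Chat, held 15 members, of which 2 and 8 had 3 markers, 0 and 2 had 4 and 3 and 0 had 5. By their neighbours in genes outside the rule, members with 5 or 6 markers resembled each other, and fewer of those with 3 did.

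Outside the rule, the chemokine gene Ccl6 had the highest ratio of members over other cells. Such ratios compare the chosen cells with the rest and are a description. Of 10480 genes with at least 30 UMIs in members, 103 were at least 4-fold higher than in other cells in both libraries (0.983%) and 9 were at least 4-fold lower in both (0.0859%). That minimum is set on members, so it admits genes high in them and drops genes with few UMIs in them. Counts of genes higher and lower in members, here and in the lists below, are therefore not comparable with each other. Ccl6 stood at 677 CPM against 14.7 CPM in other cells (log2 ratio 5.52, library labelled KO) and at 887 against 16.1 CPM in the library labelled WT (5.78). Like the rule genes it followed the number of markers, at 58.7, 390 and 1792 CPM and at 56.1, 951 and 2627 CPM in members with 3, 4 and 5 or 6 markers. Pglyrp1, a peptidoglycan recognition protein that acts against bacteria, stood at 1620 and 1631 CPM against 109 and 113 CPM. The serine protease inhibitor Serpinb6a stood at 2700 and 2031 CPM against 161 and 151 CPM. Its level in members with 3 markers was 404 and 236 CPM, against 6403 and 6098 CPM in those with 5 or 6.

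The 20 genes with the highest ratio were of several kinds. Hamp, the precursor of the iron hormone and antimicrobial peptide hepcidin, stood at 3310 and 1778 CPM against 309.9 and 160.4 CPM. Rnase1, a secreted ribonuclease, had log2 ratios of 4.14 and 4.02, and the matrix protease Mmp7 of 3.65 and 3.08. Wfdc17, a secreted whey acidic protein family member, had log2 ratios of 3.39 and 2.86. The keratin Krt20, found in mature gut epithelium, had a log2 ratio of 3.12 in both libraries, and the fatty acid binding protein Fabp1 of 3.43 and 3.27. In the same list, 2810468N07Rik lies opposite the rule gene Sox8, and 1110046J04Rik lies opposite Serpinb6a. Whether the counting used strand is not given in the sources used here, so reads of such pairs may not be separable.

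**Figure D3:**
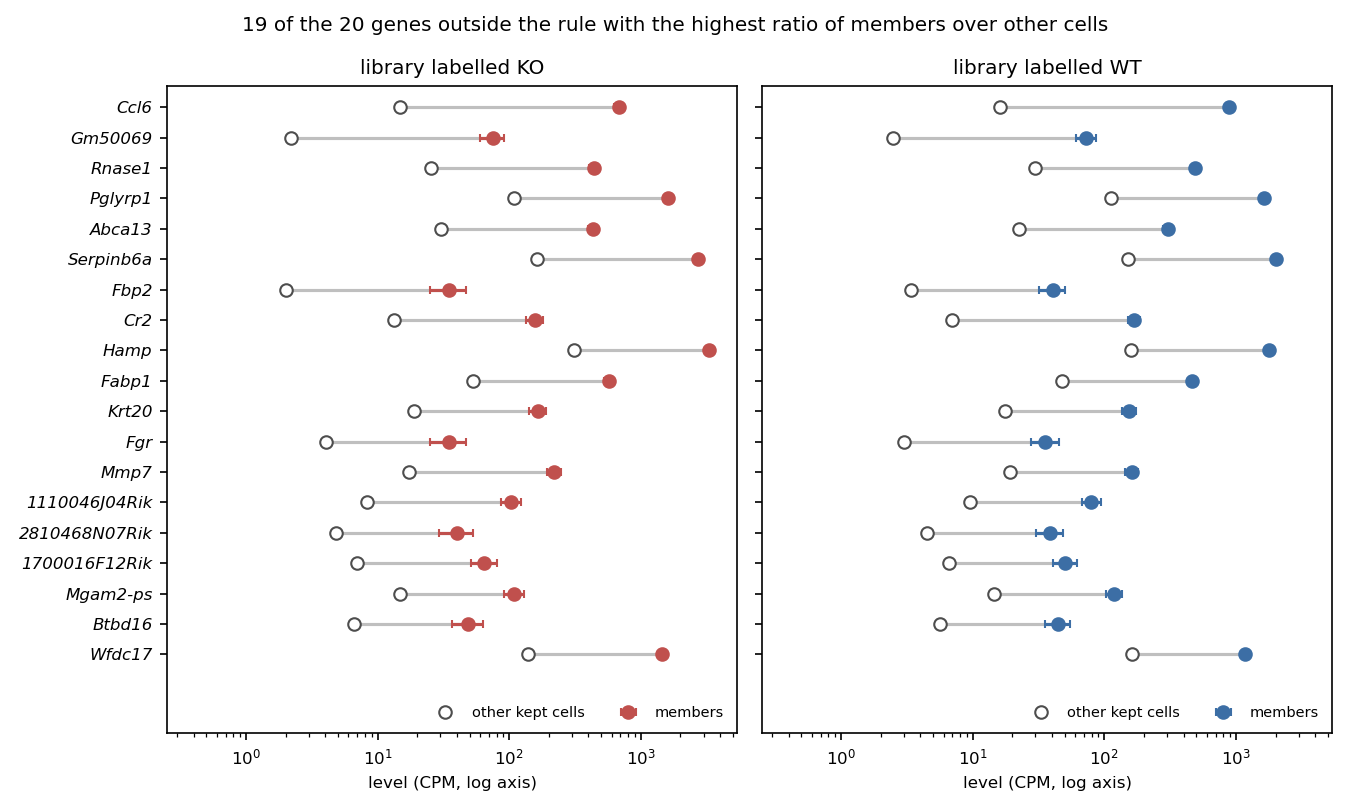
Summed level (CPM, log axis) of 19 of the 20 genes outside the rule with the highest ratio of members (filled, with 95% counting intervals) over other cells (open), in the libraries labelled KO and WT. Ccl6 leads, at 677 and 887 CPM in members against 14.7 and 16.1 CPM in other cells.

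Some leading genes are better known from leukocytes. Cr2, a complement receptor of B cells and follicular dendritic cells, had a UMI in 27 members of the library labelled KO and 46 of the library labelled WT. Of these cells, 25 and 44 also held Epcam and 25 and 40 had at least 4 rule markers, while the leukocyte antigen Ptprc had a UMI in 2 and 0. Fgr, a kinase of myeloid cells, was found in 25 and 40 members, 23 and 39 with Epcam and 0 and 1 with Ptprc. Aif1, a calcium-binding protein of macrophages, was found in 39 and 61 members, 0 and 2 of them with Ptprc. Siglecf, looked at in the same way, was found in 5 and 11 members, and there Ptprc was in 0 and 3. Ptprc itself was found in 6 and 19 members, all with Epcam, and 2 in each library had at least 4 markers. At least 3 markers of macrophages or dendritic cells were found in 9 and 5 members and at least 3 of B cells or plasmacytoid dendritic cells in 0 and 1. Epcam was in 33 of 39 and 57 of 61 of the members with Aif1. Epcam is in 87.1% and 93.6% of all members, so these shares are about those of any member.

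Other genes of the microfold programme were followed in a list of 20 that leaves out the rule genes; 19 passed the minimum of 30 UMIs. Of these, 11 were at least 2-fold higher in members than in other cells in both libraries, against 3.92% of all genes tested, and none was 2-fold lower. This list and those below were chosen with earlier results of these data known, so such counts are a description. Ccl6, Pglyrp1 and Serpinb6a of this list are also among the leading genes above. The median log2 ratio of the list was 1.57 in the library labelled KO and 1.30 in the library labelled WT, against -0.06 and -0.0036 over all genes. Tnfrsf11a, which encodes RANK itself, was less than 2-fold higher over all members, at 308 and 298 CPM against 187 and 205 CPM in other cells. In members of the cluster that held most members, Tnfrsf11a stood at 524 and 508 CPM. Tnfrsf11b, the decoy receptor osteoprotegerin that microfold cells secrete, stood at 315 and 246 CPM against 71.7 and 82.5 CPM. Gjb2, a gap junction connexin, stood at 385 and 246 CPM against 64.2 and 68.8 CPM. Clu, the chaperone clusterin, had log2 ratios of 1.81 and 1.75. S100a4, also on the list, was not higher, with log2 ratios of -0.35 and -0.09. Atoh8 did not pass, with 3 and 4 UMIs, and lay lower in members, at -1.35 [-3.65, 0.22] and -1.89 [-3.78, -0.51].

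The 19 genes of RANK and NF-kB signalling all passed, and none was 2-fold apart between members and other cells in both libraries. Their medians were 0.33 and 0.08. Traf1 was highest, at 1.05 and 0.97, with the feedback inhibitor Tnfaip3 at 0.86 and 0.74. The NF-kB subunit Relb, needed for medullary epithelium to form, was at 0.36 and 0.25.

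Genes of enterocytes and the gut mucosa were the other large group. Of 20 listed, 18 passed and 12 were at least 2-fold higher in both libraries, against 3.92% of all genes tested, with median log2 ratios of 1.59 and 1.48 against -0.06 and -0.0036 over all genes. The same 3.92% is the background of the 2-fold counts of the lists that follow. Reg3g, a secreted antibacterial lectin, stood at 3393 and 2525 CPM against 435 and 595 CPM. Muc13, a membrane mucin, stood at 272 and 305 CPM against 39.5 and 43.3 CPM. Apoa4, a lipoprotein component, had log2 ratios of 2.01 and 1.93, and the brush border protein Cdhr5 of 1.89 and 1.67. Hnf4g, a nuclear receptor of enterocytes, was at 1.62 and 1.43, while its relative Hnf4a had 9 and 8 UMIs and did not pass. Cdx1, an intestinal homeobox factor, was not higher (-0.13 and -0.60). Cells led by Nos2 and gut genes form a type of their own in these libraries, and at least 3 of the 6 markers of that type were found in 41 (29.5%) and 71 (32.4%) members against 7.78% and 12.4% of other cells.

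Among 24 transcription factors of other mimetic lineages, 12 passed and 3 were at least 2-fold higher in both libraries. These were Hnf4g, the epithelial factor Elf3 (1.36 and 1.17) and the zinc finger factor Gfi1b (2.23 and 1.66, from 19 and 25 UMIs). Neurod1 and Nkx2-2, of endocrine lineages, had no UMI in members of either library. Of 15 claudins and keratins, 11 passed and 3 were at least 2-fold higher in both: the tight junction genes Cldn3 (1.34 and 1.20) and Cldn7 (1.17 and 1.05), and Krt20.

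Genes for presenting antigen did not share the pattern. Of 14 genes of MHC class II and co-stimulation, none was 2-fold higher in members and 2 were 2-fold lower in both libraries, against 1.43% of all genes: the class II modulator H2-Ob (-1.23 and -1.19) and the co-stimulatory ligand Icosl (-1.64 and -1.97). The medians were -0.40 and -0.43. The class II chain H2-Aa stood at 1948 and 2255 CPM against 2431 and 2932 CPM in other cells. Of 16 genes of antigen uptake and lysosomes, 2 were 2-fold higher in both, the proteases Ctsh (1.63 and 1.30) and Ctsd (1.06 and 1.09). Of 18 chemokine and cytokine genes, 15 passed. Ccl6, Cxcl16 and Ccl22 were 2-fold higher in both libraries. Ccl19 (-1.06 and -1.06) and Ccl21a (-1.11 and -1.01), which draw thymocytes into the medulla, were 2-fold lower in both. The names Ccl19 and Ccl21a have further gene entries, which these levels leave out. Ccl22 came from 12 and 18 members.

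Of 13 regulators of medullary maturation, Aire was the only one at least 2-fold apart, as the rule requires, at 36.5 and 44.7 CPM against 377 and 452 CPM. Fezf2, the other regulator of self-antigen expression, stood at 197 and 182 CPM in members against 243 and 333 CPM in other cells, and at 153 and 96.0 CPM in members with 5 or 6 markers. Aire had no UMI in 104 of 139 and 160 of 219 members. At least 3 of 6 markers of the Aire stage were found in 46 (33.1%) and 60 (27.4%) members, against 26.2% and 35.9% of other cells.

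Markers of a second cell type were common in members with 3 rule markers. At least 3 of 8 tuft markers were found in 21 members of the library labelled KO (15.1%) and 54 of the library labelled WT (24.7%), against 8.62% and 14.8% of other cells. By number of rule markers they were found in 17 of 59, 0 of 30 and 4 of 50 members of the library labelled KO and in 45 of 103, 6 of 47 and 3 of 69 of the library labelled WT. All 3 and all 17 members whose only rule markers were Gp2, Spib and Sox8 carried at least 3 tuft markers. Gp2-positive members with tuft markers were 6 of 50 and 36 of 112. In members without tuft markers the share with Gp2 was 37.3% (44 of 118) and 46.1% (76 of 165). A UMI of Ccl9 or Ccl20 was found in 115 of 118 and 156 of 165 members without tuft markers and in 15 of 21 and 26 of 54 members with them. The sum of the 8 tuft genes was 807 and 1492 CPM in members against 499 and 796 CPM in other cells in the libraries labelled KO and WT.

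At least 3 markers of the Ccl21 mTEC list were found in 35 (25.2%) and 58 (26.5%) members against 46.9% and 43.5% of other cells. Markers of cortical epithelium were found in 15 (10.8%) and 12 (5.48%) members against 7.08% and 8.28% of other cells. Keratinocyte markers were in 7.91% and 6.39% of members against 4.67% and 6.55%, and neuroendocrine markers in 2.88% and 6.85% against 7.08% and 8.56%. Cycling markers were found in 3 and 5 members (2.16% and 2.28%, against 3.54% and 2.96%) and thymocyte markers in 1 and 0, against 31 and 44 other cells. Endothelial markers were found in 11 members of the library labelled KO (7.91%) and 5 of the library labelled WT (2.28%), against 8.04% and 2.88% of other cells. Of these, 7 and 5 had 3 rule markers. No doublet caller was run on these cells, and the part that doublets or free RNA play in such mixed cells was not tested.

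**Figure D4:**
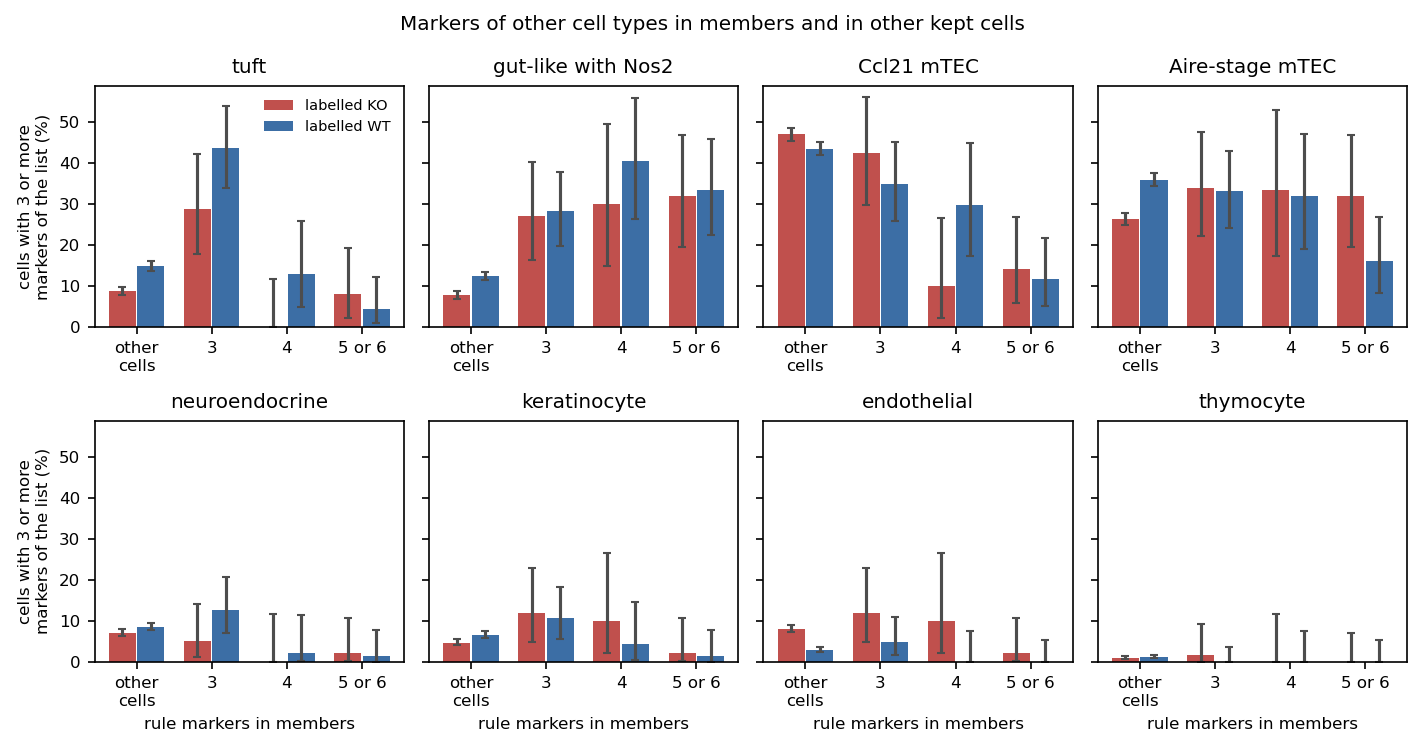
Share of cells (%, with 95% exact binomial intervals) holding at least 3 markers of each of 8 other cell types, in other cells and in members with 3, 4 and 5 or 6 rule markers, for the libraries labelled KO (red) and WT (blue). Tuft markers are in 17 of 59 and 45 of 103 members with 3 rule markers, but in 4 of 50 and 3 of 69 with 5 or 6.

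Microfold-like cells took a smaller share of the library labelled KO. Members were 3.88% of its cells [3.27, 4.56] against 5.42% [4.75, 6.17] in the library labelled WT, and the log2 ratio was -0.48 [-0.80, -0.17]. With the rule applied at 2000 UMIs per cell the shares were 2.47% (75 of 3033) and 2.95% (106 of 3596), a log2 ratio of -0.25 [-0.70, 0.19]. By number of markers the log2 ratio was -0.63 [-1.12, -0.16] for 3, -0.48 [-1.19, 0.22] for 4, -0.31 [-1.04, 0.40] for 5 and -0.26 [-1.17, 0.63] for 6. The cluster that held most members took 2.15% and 2.65% of cells, a log2 ratio of -0.30 [-0.74, 0.13]. The counting interval was below 0 under the rule as written, but included 0 for members with at least 4 or 5 markers, at equal depth and in the cluster. With 1 library each, none of these ratios tests a difference between conditions. Tuft markers, which are frequent in members with 3 rule markers, were in 8.62% (library labelled KO) and 14.8% (library labelled WT) of other cells, and their part in the lower share was not tested.
Within members, genes of the microfold programme were mostly near equal between libraries. Of 10487 genes with at least 30 UMIs, 311 were at least 2-fold higher in the library labelled KO (2.97%) and 483 at least 2-fold lower (4.61%), and the median was -0.05. None of the 19 microfold genes outside the rule was 2-fold apart. Their median was 0.05, with 10 above 0 and 9 below, where 45.1% of all genes tested were above 0 and 54.9% below. The interval lay above 0 for 5 and below 0 for 2 of them, against 8.3% and 10.5% of all genes. Gjb2 was highest in the library labelled KO, at 0.65 [0.46, 0.84]; in other cells it was -0.10. Serpinb6a was at 0.41 [0.34, 0.48], but at 0.07 [-0.01, 0.15] among members with 5 or 6 markers. Ccl6 was lower, at -0.39 [-0.51, -0.27], and at -0.55 [-0.69, -0.42] among members with 5 or 6 markers. S100a4 was at -0.40 [-0.76, -0.05] over all members and at 1.44 [0.48, 2.47] among those with 5 or 6 markers. Hamp was at 0.90 [0.83, 0.96], from 83 and 100 members, and was higher in other cells too, at 309.9 against 160.4 CPM.

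**Figure D5:**
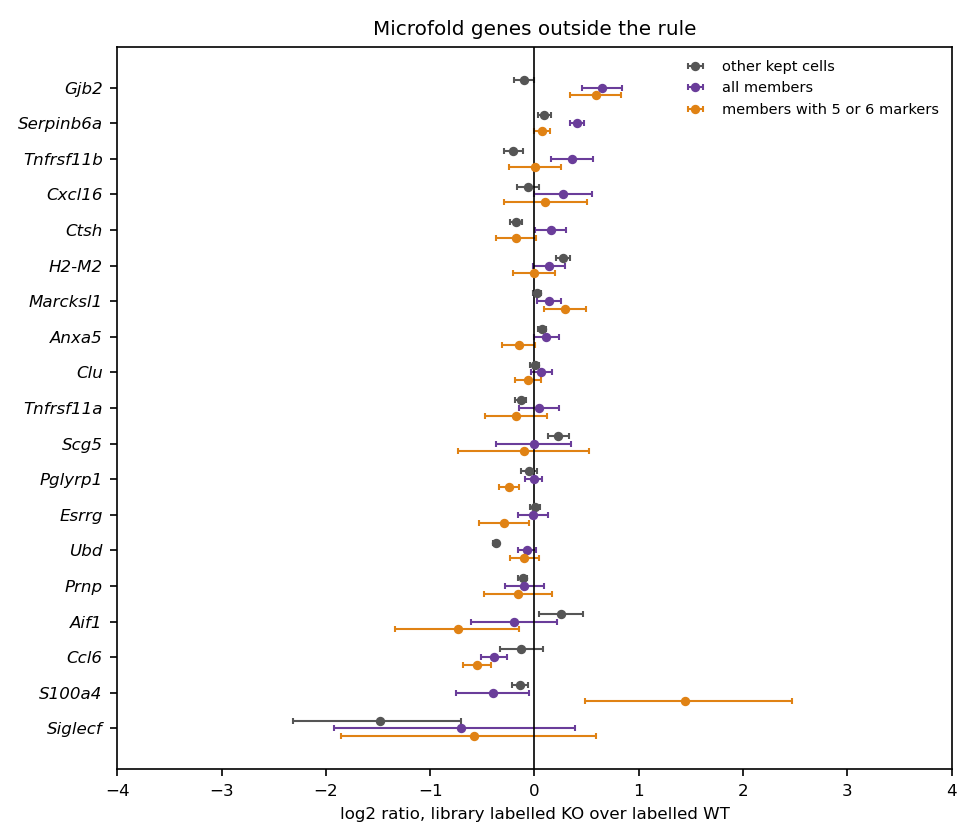
Log2 ratio between libraries, labelled KO over labelled WT (horizontal axis, with 95% counting intervals) for 19 microfold genes outside the rule, in other cells (grey), all members (purple) and members with 5 or 6 markers (orange). No gene is 2-fold apart over all members; Gjb2 is highest at 0.65, and S100a4 lies on opposite sides in all members and in those with 5 or 6 markers.

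The rule genes, whose levels the choice of cells partly fixes, differed less than 2-fold. Gp2 stood at 686 and 633 CPM, Ccl20 at 3383 and 3040 CPM and Sox8 at 112 and 111 CPM. Of the 19 RANK and NF-kB genes none was 2-fold apart, with 9 above 0 and 10 below. Over all genes tested, 45.1% were above 0 and 54.9% below. The enterocyte list had a median of 0.03. Saa3, an acute phase protein, stood at 1606 and 364 CPM (2.14 [2.01, 2.27]). It was read in 28 and 53 members, and at 2965 and 271 CPM in those with 3 markers but at 122 and 339 CPM in those with 5 or 6. MHC class II had a median of -0.09, with 6 above 0 and 8 below, and none 2-fold apart over all members. The interval lay above 0 for 1 and below 0 for 4 of them, against 8.3% and 10.5% of all genes. Among members with 5 or 6 markers H2-Oa was at -1.27 [-1.89, -0.69], while H2-Eb1 was at 0.03 [-0.11, 0.16].

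Single genes of the other lists stood further apart. The T cell chemokine Ccl5 was lower, at 122 against 441 CPM (-1.85 [-2.12, -1.60], 29 and 47 cells), and was lower in other cells too, at -0.46. The tight junction gene Cldn4 was higher, at 451 against 261 CPM (0.79 [0.61, 0.97], 83 and 138 cells), and stood at 0.71 [0.44, 0.98] among members with 5 or 6 markers and at -0.23 in other cells. The lysosomal protease Ctsl, which in cortical thymic epithelium shapes peptides for class II, was at 408 against 218 CPM (0.90 [0.71, 1.10]), with 0.94 in other cells. Cav1, of caveolae, was the 1 uptake gene 2-fold apart, at 1.04 [0.22, 1.87] from 14 and 9 cells; endothelial genes, summed, stood at 163 and 94.3 CPM in members and at 232 and 136 CPM in other cells, and their part in it was not tested. Of 8 tuft genes, 7 were below 0, with a median of -0.56. Over all genes tested, 45.1% were above 0 and 54.9% below. Dclk1 was at -1.02 [-1.18, -0.87] and Gnb3 at -1.89 [-2.40, -1.41]. Summed, the 8 tuft genes stood at 807 against 1492 CPM in members and were lower in other cells too, at 499 against 796 CPM. Claudins and keratins were above 0 in 8 of 11, with Krt19 at -0.95 [-1.29, -0.62]. Of 12 interferon response genes 8 were above 0 and 4 below, none 2-fold apart. Maturation regulators were above 0 in 5 of 13 and mimetic lineage factors in 5 of 12, near the 45.1% over all genes tested. Among the mimetic lineage factors, the ciliated cell factor Foxj1 was 2-fold lower at -1.38 [-2.38, -0.49].

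Of 14 genes that respond to tissue dissociation, 6 were above 0 and 8 below, with a median of -0.05, the same as over all genes. Of all genes tested, 45.1% were above 0 and 54.9% below. In the library labelled KO 2 were 2-fold lower, where 4.61% of all genes were, the HSP70 genes Hspa1a (170 against 484 CPM, -1.50 [-1.73, -1.28]) and Hspa1b (208 against 568 CPM, -1.45 [-1.66, -1.25]). The chaperones Dnajb1 (-0.89 [-1.20, -0.60]), Hsph1 (-0.85 [-1.20, -0.50]), Hsp90aa1 (-0.60 [-0.76, -0.45]) and Hspb1 (-0.49 [-0.66, -0.32]) were lower too. In other cells these genes were also lower, with Hspa1a at -0.83 and Hspa1b at -0.95. Of the immediate early genes of the same list, Fos was at 0.31 [0.21, 0.41], Egr1 at 0.08 [-0.03, 0.20], Jun at -0.04 [-0.15, 0.07] and Fosb at -0.06 [-0.20, 0.07], and Jun was at -0.45 [-0.66, -0.24] among members with 5 or 6 markers. At 2000 UMIs Hspa1a had a UMI in 20.2% of members of the library labelled KO and 40.7% of the library labelled WT. Among members with 5 or 6 markers Hspa1a was at -2.13, but Hspb1 was on the other side, at 0.40 [0.02, 0.79]. With 1 library each, genotype and the handling of a library cannot be told apart.

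The most extreme genes rested on few cells. Of the 10 genes ranked highest in the library labelled KO, Xcl1 (80 against 0 UMIs), Wbp2nl (69 against 0) and Mcpt4 (50 against 0) each came from 1 cell. The defensin Defa21 came from 5 cells against 1 and Ttr, the thyroid hormone carrier transthyretin, from 5 against 16. Among the 10 ranked lowest, the gut hormone genes Pyy (11 against 763 UMIs) and Ppy (9 against 484) came from 5 against 13 and 3 against 11 cells. Ccl8 came from 4 against 14 cells and Fgb, the fibrinogen beta chain, from 1 cell of the library labelled WT.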

How the data were processed

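Each of the 2 matrices the authors deposited gives UMI counts that were not normalized. Per the file headers they come from Cell Ranger 7.0.1; Seurat and mm10 are named in the submitters' processing notes. The libraries labelled KO and WT were grouped by title and held 4277 and 4957 cell barcodes and 32285 genes. Cells were kept from 500 genes and 1000 UMIs upward, with a mitochondrial share of up to 10%. No doublet caller was run. Members and gene lists were chosen with earlier results of these data known. Counts of members were summed per library and divided by summed UMIs (CPM). Intervals at 95% are exact Poisson (levels), exact conditional binomial (ratios) and Clopper-Pearson (shares). Ratios are log2, of genes with at least 30 UMIs in members. Member UMIs summed to 1179458 and 1877654, which set the precision of each level. With 1 library per group no p-value was computed.

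Named genes were the rule genes, Aire and Foxp1, 2 to 5 or a few more per role list, the 20 highest in members over other cells (a UMI in at least 10% of members), and the 10 highest and 10 lowest between libraries by the interval bound nearest 0. Y-linked, Xist, mitochondrial, ribosomal protein and haemoglobin genes were left out of the rankings. Some genes that the rules select are not reported here. The map, the split by marker number, the promoter search and the counts inside members were chosen after values were seen. The map used 3000 variable genes, 30 principal components, 15 neighbours and Leiden clustering. Alternatives changed the marker number, the Aire limit, cell filters, depth, weighting, minimum UMIs and fold. Scripts were tested on simulated data. Python 3.11.15, numpy 2.4.6, scipy 1.17.1, pandas 2.3.3, scikit-learn 1.9.0, leidenalg 0.10.2 and matplotlib 3.10.9 were used.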

Additional observations from a re-analysis of the deposited data

Results flagged for a closer look

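Of 161 named genes compared, 20 had a log2 ratio between libraries (labelled KO over labelled WT) on one side of 0 in members and on the other side in all other cells, with both counting intervals away from 0. The difference itself was not tested, since each group is 1 library. How many of all tested genes lie on opposite sides was not counted, so 20 of 161 has no background beside it. Of the 20 genes, 5 were at least 2-fold apart between members and other cells. Saa3 stood at 2.14 in members and -0.11 in other cells, the fatty acid binding protein Fabp2 at -0.78 and 0.98, the keratin Krt19 at -0.95 and 0.18, the chemokine Ccl25 at 0.42 and -0.76, and Cldn4 at 0.79 and -0.23. Fabp2 in members turned to 0.46 with its highest cell left out and to 1.25 without cells of mixed identity, and Ccl25 to -0.36 without them; with 5 or 6 markers Ccl25 was at 0.31 [-0.15, 0.76] and Saa3 at -1.48. Of the 20 genes, 13 had the other sign in members in at least 1 setting, and 7 kept one sign in the 13 settings run: Birc3, Cldn4, Gjb2, Irf7, Krt19, Lamp1 and Tnfrsf11b.

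Of the epithelial and microfold genes, Gjb2 stood at 0.65 in members and -0.10 in other cells, Tnfrsf11b at 0.36 and -0.20, Ctsh at 0.15 and -0.18, and Reg3g at 0.43 and -0.45. With 5 or 6 markers Gjb2 was at 0.59 [0.34, 0.83], but Tnfrsf11b was at 0.0037 [-0.24, 0.25], Ctsh at -0.18 [-0.36, 0.01] and Reg3g at 0.02 [-0.07, 0.11]. In members of the cluster that held most members Reg3g was at -0.73 [-0.85, -0.61]. Ccl20 stood at 0.15 and -0.13, but as a rule gene its level is partly set by the choice of cells, and it was at -0.13 [-0.19, -0.06] with 5 or 6 markers. Of the NF-kB and stress genes, Rel stood at 0.30 and -0.47, Birc3 at 0.24 and -0.16, and Atf3 at 0.21 and -0.14. Ccl22 stood at 0.71 and -0.23, Anxa1 at 0.27 and -0.12, Lamp1 at -0.39 and 0.12, and Cd74 at 0.066 and -0.13. H2-DMa stood at -0.37 and 0.11, Irf7 at -0.40 and 0.24, and Ifi27l2a at -0.16 and 0.57.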

How the results depend on the processing

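The log2 ratio of the member share stayed below 0 in the 11 alternatives run, but its interval included 0 with a stricter cell filter (-0.33), at least 4 markers (-0.36), at least 5 (-0.29) and the rule at 2000 UMIs (-0.25). Counts of genes depended on the choices. Genes 2-fold higher in the library labelled KO (311) numbered 187 with at least 4 markers, 185 with at least 5, 148 at 2000 UMIs, 164 without cells of mixed identity, 821 at a minimum of 10 UMIs, 70 at 100, 803 at 1.5-fold and 87 with a UMI in at least 10% of members. Genes 2-fold lower (483) numbered 316, 237, 823 without the Aire limit, 1304 at 10 UMIs, 133 at 100, 1271 at 1.5-fold and 167 at 10%. Genes 4-fold higher in members (103) numbered 38 with at least 2 markers, 179 with at least 4, 184 with at least 5, 44 without the Aire limit, 172 at 2000 UMIs, 173 without mixed identity, 160 with cells weighted equally, 156 at 10 UMIs and 68 at 100. Genes 4-fold lower (9) numbered 19, 3, 4 and 31 (at least 2 markers, no Aire limit, 2000 UMIs, equal weight), 28 at 10 UMIs and 3 at 100. The causes were not tested.

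Single genes changed sign: Fancd2 to 1.16 (at least 2 markers), 0.55 (at least 4) and 1.54 (0 Aire UMIs); Saa3 to -1.885, -1.06 and -1.48 (at least 4, 2000 UMIs, at least 5); Ttr to -0.61, -5.46 and -3.91 likewise, and -0.11 without its highest cell; at 2000 UMIs Foxj1 to 0.64, Ppy to 1.08 and Pyy to 2.57; with at least 5 markers Ppy to 0.34 and Tac2 to 1.34. Of 58 named genes with an interval away from 0, 34 changed sign in at least 1 of 13 settings. Of genes past 2-fold, 39.2% were higher in the library labelled KO; this was 28.2% without mixed identity, 26.3% at 2000 UMIs and 49.3% with at least 2 markers. At least 5 markers, the highest cell left out and the 10% minimum were added after seeing the data. No paired analysis was possible because each group is 1 library, and for the same reason no replicate could be left out.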
